A study of Mus musculus with 4 samples.

Results

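The B7 family of immune checkpoint ligands was examined by bulk RNA sequencing in mouse lungs carrying metastases of 4T1, a mouse triple-negative breast cancer (TNBC) cell line. Its 8 genes were taken by symbol from the 56748 genes of the count table. They are Cd276 (B7-H3), Cd274 (PD-L1), Pdcd1lg2 (PD-L2), Cd80 (B7-1), Cd86 (B7-2), Icosl (B7-H2), Vsir (VISTA) and Vtcn1 (B7-H4). Cd276 encodes the antigen of the antibody given to the treated mice, and the comparison asks how the transcripts of this target and of its relatives stood after therapy. All 8 genes passed the filter on low counts and were among the 15320 genes tested.

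There were 4 samples from lungs of BALB/cJ mice, 2 saline (PBS) controls and 2 given ADC/cmLumiOpto, the combination of an antibody-drug conjugate and a gene therapy. The ADC is an anti-CD276 antibody carrying mertansine (DM1), a tubulin poison. cmLumiOpto is an adeno-associated virus enclosed in exosomes that also display an anti-CD276 antibody. The virus expresses a light-driven system in mitochondria, with a luciferase substrate as its light source. All mice were female, received luciferase-expressing 4T1 cells through the tail vein at 7 weeks of age and have an intact immune system, and the tumors therefore lodged in the lung without a primary breast tumor. Per the labels, tumors were harvested after 3 weeks of treatment with ADC at 16 mg/kg, while the methods of the study give a lower dose, and the treatment label also carries the abbreviation Olap, which no source used here explains. The labels call the material harvested tumor cells and the methods call it lung tissue, and the methods state more samples per group than the 2 on which every SD and p here rests. The study also treated mice with either agent alone, but none of these samples came from them. The ADC and the gene therapy therefore cannot be told apart here.

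B7 proteins are cell-surface ligands of the immunoglobulin superfamily. They sit on antigen-presenting cells, stroma and many carcinomas and bind receptors on T cells, where CD80, CD86 and ICOSL deliver costimulation through CD28 and ICOS, and PD-L1 and PD-L2 restrain T cells through PD-1. CD80 and CD86 are also bound by the inhibitory receptor CTLA-4. B7-H3, B7-H4 and VISTA are mostly described as inhibitory, and B7-H3 is abundant on many solid tumors and on their stroma and scarce on most normal tissue, which made it a target for antibodies.

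Library totals ranged from 15263375 to 19675436 counts, and 3 counts corresponded to between 0.146 and 0.202 CPM (counts scaled to library size, with TMM factors). Across all tested genes, the Pearson correlation of log2 CPM was 0.973 for the saline pair and 0.970 for the ADC/cmLumiOpto pair, which describes their likeness only. In the comparison of the groups by the edgeR quasi-likelihood test, 0 of 15320 genes (0%) passed the threshold of 0.05 on the adjusted p, whose lowest value was 0.0982. Before adjustment 3641 genes (23.8%) were under 0.05. The edgeR exact test called 1143 genes after adjustment (7.46%) and DESeq2 called 1353. With 2 samples per group an exact permutation test of a single gene cannot give a p below 0.333, so it was not used.

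Within the B7 family, Cd276 was lower in both ADC/cmLumiOpto samples than in both saline samples, and Cd86 and Icosl were higher in both. The other 5 genes overlapped between the groups, although Vsir did not overlap under upper-quartile normalization. None of the 8 genes had an adjusted p under 0.05 in the quasi-likelihood test or the edgeR exact test. Cd276 was the only member called by DESeq2 (log2 fold change = -0.62, adjusted p = 0.0294). DESeq2 called 1353 of all 15320 tested genes and gave no adjusted p for 1783 of them. The 1 member that was lower without overlap stands beside 28.8% of all tested genes, and the 2 that were higher stand beside 28.1%. At an unadjusted p under 0.05 there was 1 member on the lower side (Cd276), beside 12.3% of all genes, and 1 on the higher side (Icosl), beside 11.4%. Cd276 stayed under 0.05 before adjustment in all 14 alternative fits and Icosl in 6 of 14. Counts of this size are close to or below what the same shares of all genes would give for 8 genes. The fitted difference was above 0 for 6 members and below 0 for 2, with a median log2 fold change of 0.37 over the family and 0.028 over all tested genes.

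**Figure D1:**
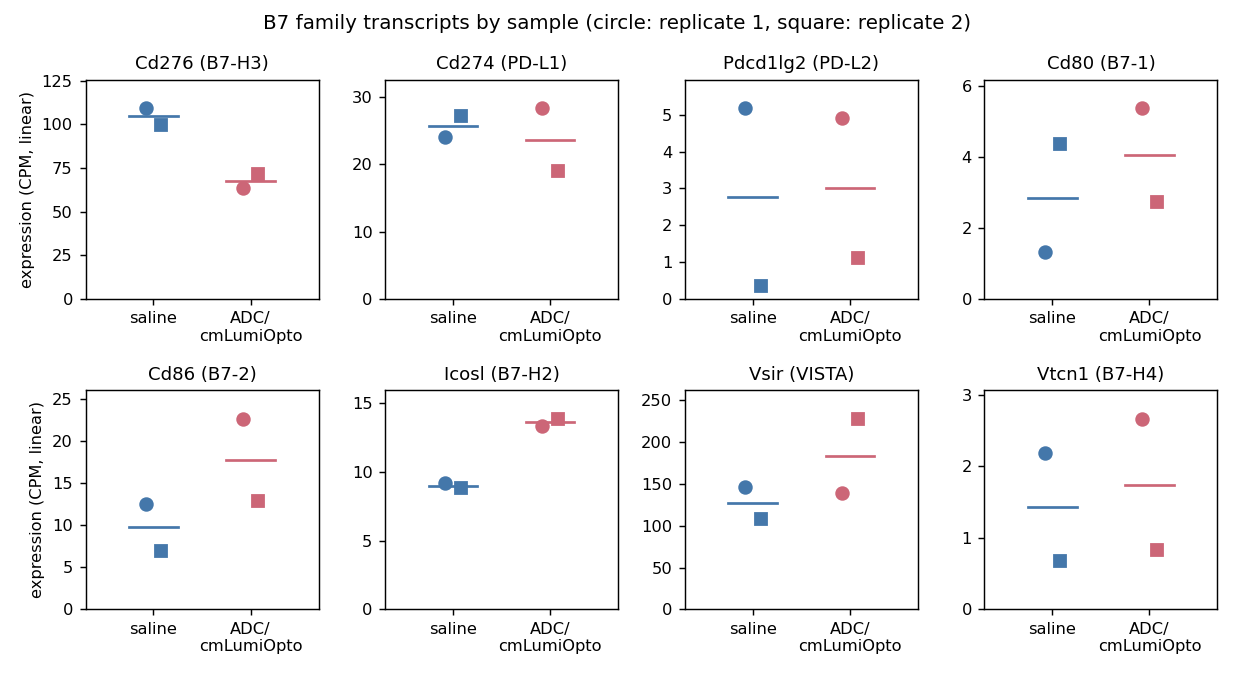
Expression of the 8 B7 family genes in each sample (vertical axes, CPM on a linear scale from 0) for saline (blue) and ADC/cmLumiOpto (red), with circles for replicate 1, squares for replicate 2 and a line at the mean of each group. Cd276 lies between 63.6 and 71.4 CPM in the ADC/cmLumiOpto samples and between 99.8 and 109 CPM in the saline samples, Icosl is separated in the opposite direction, and Pdcd1lg2 and Vtcn1 differ more between samples of a group than between groups.

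Cd276 (ENSMUSG00000035914) lies on the minus strand at chr9:58431581-58462720, as listed in the table, whose build is mm39 per the submitters' processing notes. Counts were 1749 and 1483 with saline and 1124 and 1465 with ADC/cmLumiOpto. Scaled for depth, these were 109 and 99.8 CPM with saline and 63.6 and 71.4 CPM with ADC/cmLumiOpto, and the groups did not overlap. The mean was 105 ± 6.62 CPM with saline and 67.5 ± 5.46 CPM with ADC/cmLumiOpto (SD, n = 2 each), a ratio of 0.646. The log2 fold change was -0.63 (SE 0.16, 95% interval -1.01 to -0.25), with an unadjusted p of 0.00587, which ranked it 796 of 15320 genes, and an adjusted p of 0.112. Leaving out each sample in turn moved this value only between -0.72 and -0.54. In bulk tissue, fewer cells of a type and less RNA per cell cannot be told apart, here and for every gene below.

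The 250 bases before the start of Cd276 are shown with those of Cd274 because the target of the ADC and the best known checkpoint ligand differ widely in base composition there. Both are from RefSeq on GRCm38.p6, written 5′ to 3′ on the strand of the gene, at chr9:58555034-58555283 (minus strand) for Cd276 and chr19:29367188-29367437 (plus strand) for Cd274, with capitals marking each GC box (GGGCGG on either strand), the element bound by Sp1-type factors.
Cd276: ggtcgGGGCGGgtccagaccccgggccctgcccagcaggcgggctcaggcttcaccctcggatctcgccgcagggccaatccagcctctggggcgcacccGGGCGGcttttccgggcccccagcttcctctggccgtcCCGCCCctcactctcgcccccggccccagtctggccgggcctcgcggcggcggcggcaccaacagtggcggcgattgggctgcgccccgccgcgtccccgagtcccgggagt
Cd274: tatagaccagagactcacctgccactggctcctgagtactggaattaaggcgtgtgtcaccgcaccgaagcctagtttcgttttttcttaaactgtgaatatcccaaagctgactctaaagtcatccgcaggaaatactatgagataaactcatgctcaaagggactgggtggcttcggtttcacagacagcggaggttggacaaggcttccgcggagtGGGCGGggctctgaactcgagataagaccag
The Cd276 window is 77.6% G and C with 29 CpG dinucleotides, at the 97.6th percentile of G and C content among 32851 windows of the same length, and holds 3 GC boxes that begin 245, 150 and 112 bases before the start. The Cd274 window is 50.4% G and C with 11 CpG dinucleotides and 1 GC box, and the median window has 52.4% G and C and 6.0 CpG dinucleotides. A GC box was present in 4 of the 7 members with a sequence (Cd274, Cd276, Icosl and Vsir) and in 32.7% of all windows. Neither the STAT-binding GAS motif (TTCNNNGAA) nor the TATA box (TATAAA) was present in any of the 7 windows, on either strand, beside 7.02% and 12.4% of all windows. Such matches are descriptions of letters and not measured binding sites.

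Among the ligands of PD-1, Cd274 and Pdcd1lg2 showed no separation of the groups. Cd274 (ENSMUSG00000016496, chr19:29344855-29365495, plus strand), which encodes PD-L1, had 386 and 405 counts with saline and 501 and 391 with ADC/cmLumiOpto. Its levels were 24.1 and 27.3 CPM with saline and 28.4 and 19.0 CPM with ADC/cmLumiOpto, so that the treated pair held both the highest and the lowest value. The log2 fold change was -0.12 (SE 0.25, 95% interval -0.72 to 0.48, adjusted p = 0.807). That interval leaves room for differences of either sign, and the value was 0.14 without ADC/cmLumiOpto 2.

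Pdcd1lg2 (ENSMUSG00000016498, chr19:29388319-29448561, plus strand) encodes PD-L2, which is more restricted than PD-L1 to myeloid cells, and begins 22823 bases after the end of Cd274. It was counted 83 and 5 times with saline and 87 and 23 times with ADC/cmLumiOpto. In CPM these were 5.18 and 0.337 with saline and 4.92 and 1.12 with ADC/cmLumiOpto. The first sample of each group was thus high and the second low, and the fitted log2 fold change was 0.071 with an interval of -2.32 to 2.46 (SE 1.01, adjusted p = 0.974). Although the genes are neighbors, the order of the samples differed, since Cd274 was higher in saline 2 than in saline 1 while Pdcd1lg2 was lower there.

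Of the ligands of CD28 and CTLA-4, Cd86 was higher in both ADC/cmLumiOpto samples and Cd80 overlapped. Cd86 (ENSMUSG00000022901, chr16:36424231-36486443, minus strand), carried by macrophages, dendritic cells and B cells, had 201 and 103 counts with saline and 399 and 264 with ADC/cmLumiOpto. Its levels were 12.5 and 6.93 CPM with saline and 22.6 and 12.9 CPM with ADC/cmLumiOpto. The higher saline sample and the lower ADC/cmLumiOpto sample lay almost at the same level. Group means were 9.74 ± 3.97 and 17.7 ± 6.88 CPM (SD, n = 2 each), a ratio of 1.82. On the log2 scale the difference was 0.85 (SE 0.39, 95% interval -0.084 to 1.79, adjusted p = 0.240), and it was between 0.41 and 1.35 when a sample was left out.

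Cd80 (ENSMUSG00000075122, chr16:38275923-38316697, plus strand), induced on activated antigen-presenting cells, was scarcer. It was counted 21 and 65 times with saline and 95 and 56 times with ADC/cmLumiOpto. The corresponding levels were 1.31 and 4.38 CPM with saline and 5.38 and 2.73 CPM with ADC/cmLumiOpto. The lowest sample was a saline control and the highest an ADC/cmLumiOpto sample, with the remaining pair in reverse order. The log2 fold change was 0.51 (SE 0.61, 95% interval -0.95 to 1.97, adjusted p = 0.639), and -0.12 without saline 1.

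Icosl (ENSMUSG00000000732, chr10:77905136-77919747, plus strand), which encodes the ligand of the T cell costimulator ICOS, varied least within groups. It had 147 and 131 counts with saline and 236 and 284 with ADC/cmLumiOpto. The levels were 9.18 and 8.82 CPM with saline and 13.4 and 13.8 CPM with ADC/cmLumiOpto, and the groups did not overlap. With 2 samples per group, closeness within a group does not measure precision. Means were 8.998 ± 0.254 and 13.6 ± 0.335 CPM (SD, n = 2 each), a ratio of 1.51. This gave a log2 fold change of 0.59 (SE 0.25, 95% interval 0.0015 to 1.19), with an unadjusted p of 0.0496 and an adjusted p of 0.209. Without each sample in turn the value was between 0.57 and 0.63, with an unadjusted p between 0.0949 and 0.148, so the unadjusted call was lost each time.

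Among the inhibitory relatives, Vsir was abundant and Vtcn1 rare. Vsir (ENSMUSG00000020101, chr10:60182630-60208463, plus strand), expressed mainly by myeloid cells and T cells, had 2337 and 1599 counts with saline and 2465 and 4668 with ADC/cmLumiOpto. These were 146 and 108 CPM with saline and 139.5 and 227 CPM with ADC/cmLumiOpto. ADC/cmLumiOpto 2 stood above all other samples, and ADC/cmLumiOpto 1 lay between the controls. Its log2 fold change was 0.53 (SE 0.27, 95% interval -0.10 to 1.17, adjusted p = 0.270), and 0.14 without ADC/cmLumiOpto 2.

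Vtcn1 (ENSMUSG00000051076, chr3:100732775-100804238, plus strand), best known from epithelia of breast and ovary and from their carcinomas, had the lowest group means per length, though not the lowest value in either saline sample. It had 35 and 10 counts with saline and 47 and 17 with ADC/cmLumiOpto. Levels were 2.19 and 0.673 CPM with saline and 2.66 and 0.828 CPM with ADC/cmLumiOpto. Like Pdcd1lg2, it was high in the first sample of each group and low in the second. The fitted log2 fold change was 0.23 (SE 0.75, 95% interval -1.55 to 2.01, adjusted p = 0.879).

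**Figure D2:**
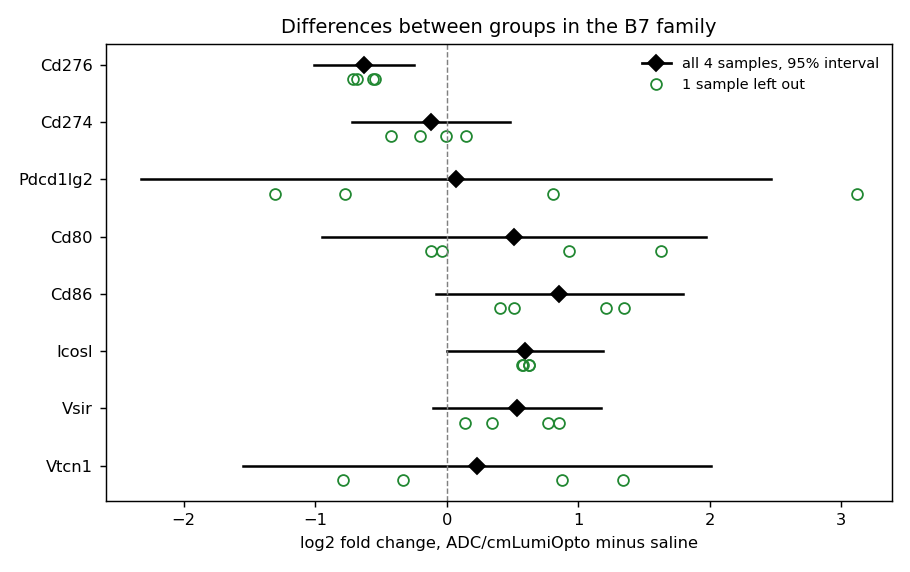
Log2 fold change of each B7 family gene, ADC/cmLumiOpto minus saline (horizontal axis), from the fit over all genes (black diamonds, bars for the 95% interval) and from fits that lack 1 sample (green circles). The intervals of Cd276 and Icosl exclude 0 before adjustment for the number of genes, with Cd276 at -0.63 and Icosl at 0.59, while the circles of Cd274, Pdcd1lg2, Cd80 and Vtcn1 fall on both sides of 0.

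Levels of different genes were compared per length, as CPM per kilobase of gene model (RPKM). In the saline group Cd276 had the highest mean, 28.6 RPKM, followed by Vsir at 25.3, Cd274 at 7.09, Cd86 at 2.66, Icosl at 1.95, Pdcd1lg2 at 1.41, Cd80 at 0.768 and Vtcn1 at 0.545 RPKM. Of the neighbors in this order, the sample values separated Vsir from Cd274 and Cd274 from Cd86, and all other neighbors overlapped, Cd276 and Vsir included. In the ADC/cmLumiOpto group Vsir came first at 36.6 RPKM, and Cd276 was second at 18.4 RPKM. The order of the other 6 was as in the saline group, from Cd274 at 6.54, Cd86 at 4.84 and Icosl at 2.94 to Pdcd1lg2 at 1.54, Cd80 at 1.09 and Vtcn1 at 0.665 RPKM. Here Vsir and Cd276, Cd276 and Cd274, Cd86 and Icosl, and Icosl and Pdcd1lg2 were apart, and the other neighbors overlapped.

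**Figure D3:**
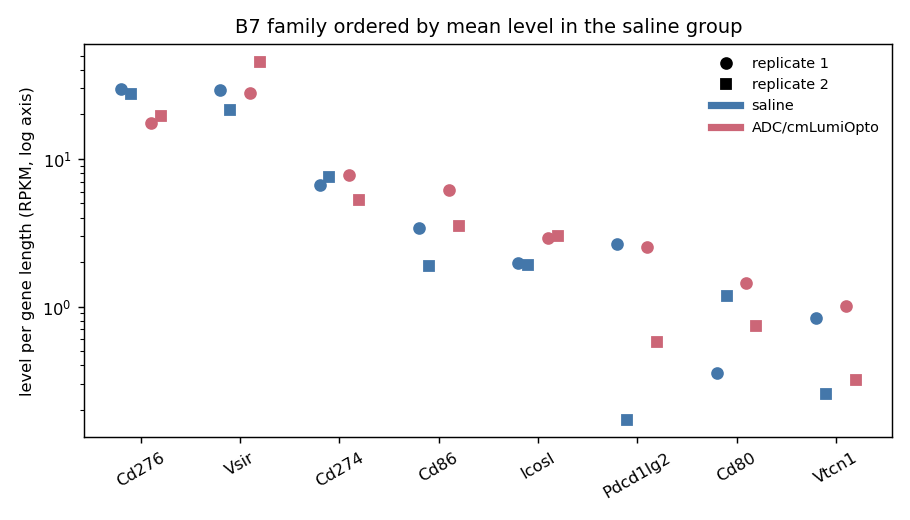
Level per gene length of the 8 B7 family genes in each sample (vertical axis, RPKM on a log scale), ordered from left to right by the mean of the saline group, with circles for replicate 1 and squares for replicate 2. Cd276 and Vsir share the top of the saline group at means of 28.6 and 25.3 RPKM, and in the ADC/cmLumiOpto group Vsir lies above Cd276 in both samples.

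The share of Cd276 in the family was lower in both ADC/cmLumiOpto samples, which restates its own level in part, and both top genes enter each share. Cd276 contributed 39.9% and 44.2% of the summed RPKM of the 8 genes with saline and 25.9% and 24.9% with ADC/cmLumiOpto. For Vsir the shares were 38.9% and 34.8% with saline and 41.5% and 58.0% with ADC/cmLumiOpto. The ratio of Vsir to Cd276 in RPKM was 0.975 and 0.787 with saline and 1.60 and 2.32 with ADC/cmLumiOpto, without overlap. The ratio of Cd86 to Cd276 was 0.115 and 0.0694 with saline and 0.355 and 0.180 with ADC/cmLumiOpto, also without overlap. That ratio had to separate, because Cd86 alone was higher and Cd276 alone lower without overlap. The ratio of Vsir to Cd276 carries the separation of Cd276, since Vsir alone overlapped. By contrast, Cd276 over Cd274 overlapped, at 4.49 and 3.63 with saline and 2.22 and 3.71 with ADC/cmLumiOpto. The ratios of Cd86 to Cd80 and of Cd274 to Pdcd1lg2 overlapped as well.

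The receptors and partners of these ligands had fitted differences toward the ADC/cmLumiOpto samples. Of 7 genes 6 were tested, all 6 with a fitted difference above 0 and a median log2 fold change of 0.81. At an unadjusted p under 0.05, 2 were higher, beside 11.4% of all tested genes. Without overlap, 4 of the 7 were higher, beside 28.1% of all tested genes. None passed after adjustment in the quasi-likelihood test, and the edgeR exact test called 2, Pdcd1 and Selplg, beside 7.46% of all tested genes. Pdcd1, which encodes PD-1, was at 15.7 and 8.35 CPM with saline and 35.4 and 21.2 CPM with ADC/cmLumiOpto. Its log2 fold change was 1.23 (SE 0.38, adjusted p = 0.132), and its adjusted p in the edgeR exact test was 0.0497. Thus the transcript of the receptor was higher in both treated samples while its ligands Cd274 and Pdcd1lg2 overlapped between the groups.

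Selplg encodes PSGL-1, an adhesion molecule of leukocytes that VISTA binds at acid pH. It was at 54.3 and 30.1 CPM with saline and 71.2 and 151 CPM with ADC/cmLumiOpto (log2 fold change = 1.39, SE 0.41, adjusted p = 0.124). Its highest sample, ADC/cmLumiOpto 2, was also the highest for Vsir. Icos, the receptor of ICOSL, was at 3.43 and 1.28 CPM with saline and 5.26 and 3.17 CPM with ADC/cmLumiOpto, which overlapped (log2 fold change = 0.81, adjusted p = 0.386). For the receptors of CD80 and CD86, the costimulatory Cd28 had 1.94 and 1.01 CPM with saline and 2.66 and 1.95 CPM with ADC/cmLumiOpto, and the inhibitory Ctla4 had 2.62 and 1.95 CPM with saline and 3.68 and 1.51 CPM with ADC/cmLumiOpto. Their log2 fold changes were 0.62 and 0.15 (adjusted p = 0.474 and 0.889). Treml2, a proposed receptor of B7-H3, had 13.5 and 11.4 CPM with saline and 11.7 and 31.7 CPM with ADC/cmLumiOpto, with only ADC/cmLumiOpto 2 above the others (log2 fold change = 0.81, adjusted p = 0.317). Igsf11, a ligand of VISTA, was too rare to test, with 1 and 0 counts with saline and 8 and 4 with ADC/cmLumiOpto.

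Among other checkpoint and costimulatory ligands, 4 were higher and 2 lower without overlap, beside 28.1% and 28.8% of all tested genes. Of 15 genes 12 were tested, with 8 fitted differences above 0, 4 below and a median log2 fold change of 0.26. Only Cd48, a ligand of the receptor 2B4, had an unadjusted p under 0.05, beside 11.4% of all tested genes on the higher side. It was at 9.49 and 5.86 CPM with saline and 25.4 and 15.05 CPM with ADC/cmLumiOpto (log2 fold change = 1.39, SE 0.37, adjusted p = 0.114, and 0.0243 in the edgeR exact test). Next in order of p were Cd40, the costimulatory receptor of antigen-presenting cells, with a log2 fold change of 0.83, Tnfrsf14 (HVEM) with 0.51 and Cd200 with 0.37, at adjusted p = 0.229, 0.322 and 0.359. The butyrophilin genes, the closest relatives of the B7 family, were near or below the detection floor. None of 8 passed the filter on low counts, and their summed level was between 0.396 and 1.02 CPM per sample.

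Regulators of PD-L1, from interferon signaling to protein turnover, were divided in direction. All 19 were tested, and the median log2 fold change was -0.030. At an unadjusted p under 0.05, 2 were higher and 4 lower, beside 11.4% and 12.3% of all tested genes. None passed after adjustment in the quasi-likelihood test. The edgeR exact test called 7.46% of all tested genes. Hif1a, the hypoxia factor that activates Cd274, had the smallest p. It was at 224 and 297 CPM with saline and 157 and 156 CPM with ADC/cmLumiOpto, and was the only regulator called by the edgeR exact test (log2 fold change = -0.73, SE 0.18, adjusted p = 0.112, and 0.0464 in the edgeR exact test). Stat3, another activator, was at 320 and 351 CPM with saline and 203 and 272 CPM with ADC/cmLumiOpto (log2 fold change = -0.50, adjusted p = 0.182). The ubiquitin ligase parts that turn over PD-L1 protein had fitted differences of opposite sign, with log2 fold changes of 0.48 for the adaptor Spop and -0.51 for the scaffold Cul3 (adjusted p = 0.133 and 0.159). Cd274 itself overlapped between the groups.

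Summed markers of lung epithelium were higher and those of fibroblasts and mural cells lower in both ADC/cmLumiOpto samples, while the sums for neutrophils, T cells and NK cells overlapped between the groups. Of 10 lung epithelium markers all 10 were higher at an unadjusted p under 0.05 (median log2 fold change = 2.22), led by Napsa, Sftpd, Hopx and Scgb3a2, and their summed level was 2729 and 445 CPM with saline and 11831 and 7922 CPM with ADC/cmLumiOpto. Of 10 fibroblast and mural cell markers 8 were lower, led by Col1a1, Col1a2, Pdgfra and Col3a1, with sums of 5308 and 3724 CPM against 1900 and 1536 CPM. Of 12 macrophage and monocyte markers 1 was higher (Lyz2, log2 fold change 1.26) and 1 lower (Mrc1, -0.98), and the summed level was 3650 and 2765 CPM with saline and 6729 and 4234 CPM with ADC/cmLumiOpto. Lyz2 is also made by alveolar type 2 cells. Of 10 neutrophil markers 8 were higher, led by Camp, Ly6g, S100a9 and Csf3r, with sums of 1378 and 616 CPM against 1338 and 8998 CPM, so that ADC/cmLumiOpto 2 stood apart. Of 10 T cell markers 3 were higher (Cd3d, Cd3g and Trbc2), with sums of 66.7 and 24.9 CPM against 141 and 62.2 CPM. All 10 T cell markers had a fitted difference above 0, with a median log2 fold change of 1.17.

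For carcinoma and airway epithelium, 9 of 10 markers were tested, with Cldn7 higher and Krt14 lower, and the sums were 3155 and 3465 CPM with saline and 3082 and 2981 CPM with ADC/cmLumiOpto, while Krt5 was listed at 0 in 3 of the 4 samples. In the endothelial list 5 of 10 were higher, led by Egfl7, Cldn5, Tek and Vwf (sums between 469 and 930.1 CPM over the 4 samples). In the dendritic cell list 9 of 10 were tested, with Clec9a, Batf3 and Flt3 higher and Fscn1, an actin bundler also made by carcinoma cells, lower. Its sums were 638 and 604 CPM with saline against 427 and 438 CPM with ADC/cmLumiOpto, and Fscn1 held most of each. The list itself had 6 fitted differences above 0, 3 below and a median log2 fold change of 1.32. NK cell markers gave 1 higher (Klrd1) and 1 lower (Prf1) of 5 tested, and B cell markers 1 higher (Cd79b) of 5 tested, with sums of at most 27.3 and 14.2 CPM and with Ms4a1 listed at 0 in saline 2. Counts of marker genes given as higher or lower are at an unadjusted p under 0.05 in the quasi-likelihood test, where none passed after adjustment. Of all tested genes, 11.4% were higher and 12.3% lower at that p, and the edgeR exact test called 7.46% after adjustment. The edgeR exact test called 8 lung epithelium, 3 endothelial and 3 neutrophil markers higher after adjustment, and 5 fibroblast and mural cell markers lower. It also called 1 higher in each of the carcinoma and airway epithelium, macrophage and monocyte, and T cell lists. In the dendritic cell list it called 1 higher and 1 lower, and in the NK and B cell lists none. The part of these cell types in the B7 results was not tested.

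**Figure D4:**
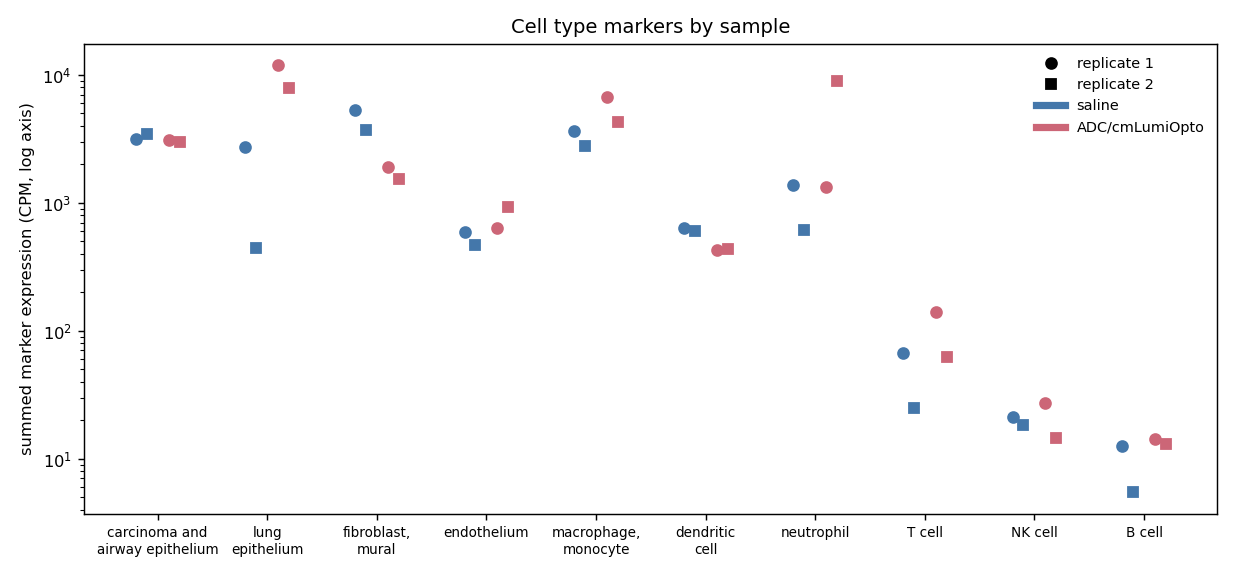
Summed expression of the marker genes of 10 cell types in each sample (vertical axis, CPM on a log scale), with circles for replicate 1, squares for replicate 2, blue for saline and red for ADC/cmLumiOpto. Lung epithelium markers are higher and fibroblast and mural cell markers lower in both ADC/cmLumiOpto samples, and neutrophil markers reach 8998 CPM in ADC/cmLumiOpto 2.

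Set against these markers within each sample, the members gave different pictures. Per 1000 CPM of macrophage and monocyte markers, Cd86 was at 3.44 and 2.51 CPM with saline and 3.36 and 3.04 CPM with ADC/cmLumiOpto, and the groups overlapped. Without Lyz2 among the markers the same values were 6.39 and 4.23 with saline and 9.27 and 7.18 with ADC/cmLumiOpto, which did not overlap. Cd276 per 1000 CPM of carcinoma and airway epithelium markers was 34.6 and 28.8 with saline and 20.6 and 23.9 with ADC/cmLumiOpto. It was thus still lower in both treated samples. Krt8 and Krt18 held most of that marker sum, and the ratio was not rerun without them. That list mixes carcinoma and airway epithelium, so this ratio does not measure carcinoma content alone. Per 1000 CPM of fibroblast and mural cell markers Cd276 was 20.6 and 26.8 with saline and 33.5 and 46.5 with ADC/cmLumiOpto, the opposite direction. Without the collagen genes Col1a1, Col1a2 and Col3a1 among those markers, the values were 180.0 and 167 with saline and 166 and 201 with ADC/cmLumiOpto, and the groups overlapped. The full fibroblast and mural cell sum was itself lower in both treated samples. Per that full sum, Cd274, Cd80, Cd86, Icosl, Vsir and Vtcn1 were also higher without overlap, and Pdcd1lg2 overlapped. Per macrophage and monocyte markers and per neutrophil markers, Cd276 was lower without overlap. Vsir per 1000 CPM of Ptprc, the pan-leukocyte gene CD45, was 2090.3 and 2252 with saline and 1330 and 1306 with ADC/cmLumiOpto, lower in both treated samples although its own level overlapped. Per 1000 CPM of macrophage and monocyte markers Vsir overlapped, at 40.0 and 38.9 with saline and 20.7 and 53.7 with ADC/cmLumiOpto. Icosl, higher by its own level, was lower per 1000 CPM of Ptprc, at 131 and 185 with saline and 127 and 79.5 with ADC/cmLumiOpto, and overlapped per macrophage and monocyte markers, at 2.51 and 3.19 with saline and 1.99 and 3.27 with ADC/cmLumiOpto. Without Lyz2 among those markers, Icosl was at 4.67 and 5.38 with saline and 5.48 and 7.73 with ADC/cmLumiOpto, which did not overlap. Ptprc itself was at 69.8 and 47.8 CPM with saline and 105 and 174 CPM with ADC/cmLumiOpto. Cd276 and Cd274 were also lower per Ptprc without overlap. No share over all genes was computed for any of these ratios. Pdcd1lg2 and Vtcn1, high in the first sample of each group, shared that order with the summed markers of lung epithelium, fibroblasts, macrophages, T cells, NK cells and B cells, which were also higher in the first sample than in the second within each group.

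The genes whose pattern over the 4 samples was most like that of Cd276 were sought among all tested genes by the distance between log2 CPM values centered on the mean of each gene. The nearest were Agfg2 at a distance of 0.026, Supt6 at 0.033, Mast2 at 0.033, Carm1 at 0.038 and Aldh1l2 at 0.045. Agfg2 was at 27.3 and 25.3 CPM with saline and 16.1 and 18.3 CPM with ADC/cmLumiOpto. Supt6, a histone chaperone of transcribing polymerase, was at 178 and 166 CPM with saline and 103 and 119 CPM with ADC/cmLumiOpto. Carm1, an arginine methyltransferase, was at 84.9 and 76.8 CPM with saline and 48.5 and 53.5 CPM with ADC/cmLumiOpto. With only 4 samples and 15320 genes, such closeness is a description of these libraries.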

How the data were processed

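Bulk RNA sequencing (poly-A selected, Illumina) was examined in 4 samples, grouped by their titles into saline and ADC/cmLumiOpto. The deposited values are raw gene counts, whole numbers with no normalization, made after alignment with HISAT2. The program that counted reads is not given in the sources used here. The methods of the study name GRCm38 and the processing notes mm39. None of the 8 members had the start and end given by GENCODE for GRCm38, while all 8 had the same span, so positions are printed as listed. The labels do not say which of a stranded or unstranded library was made.

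Counts were fitted with edgeR 4.0.16 in R 4.3.3. The filter was filterByExpr (minimum count 10, minimum total 15). Normalization was by TMM, and groups were compared by glmQLFit with its bias adjustment on (legacy = FALSE, which is not the default of this version) and glmQLFTest, with Benjamini-Hochberg adjustment over all tested genes and a threshold of 0.05. The SE is the size of the log2 fold change divided by the square root of F, and the 95% interval uses the degrees of freedom of the fit. The prior count was 0.125 for fold changes and 2 for the log2 CPM behind distances between genes. RPKM is CPM per kilobase of the gene model length in the table. DESeq2 1.42.0, the edgeR exact test, other normalizations and filters, a replicate block, removal of the trend on gene length and each sample left out were the alternatives. Scripts were tested on simulated data. The labels do not call the samples separate mice, and if they were not, p-values would measure only technical spread. The limit of 3 counts covers counting error only.

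Samples with the same replicate number share only that number, and their deviations from the group means correlated at 0.0985 over 15320 genes. Members and gene lists were chosen with earlier results of these data known. All members and receptors are named, the tested genes with the smallest unadjusted p (up to 4) in every other list, and the 5 genes nearest to Cd276. RefSeq promoters (GRCm38.p6) were given for 7 of 8 members. Member levels per marker level were added after the data had been seen. The value of a single gene of the marker lists is not reported here.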

Additional observations from a re-analysis of the deposited data

How the results depend on the processing

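The direction of Cd276, Cd86, Icosl and Vsir was the same under all 14 alternatives run for each. The log2 fold change of Cd276 was between -0.72 and -0.54, with an adjusted p between 0.0294 (DESeq2, log2 fold change -0.62) and 0.456, and only DESeq2 put a member past the threshold (1 member). Across all genes the number with an adjusted p under 0.05 was 1353 by DESeq2, 1143 by the edgeR exact test and 728 with the replicate block, and between 0 and 211 with a sample left out, the highest without saline 1. With the replicate block Cd276 was at -0.63 (adjusted p = 0.0774) and Cd86 at 0.87 (adjusted p = 0.0961). No member passed the adjusted threshold with the block, while before adjustment Icosl was lost (unadjusted p of 0.0718) and Cd86 was gained (unadjusted p of 0.0120). The replicate number is shared by separate samples and pairs none of them. Members with an unadjusted p under 0.05 were 1 by the exact test and 1 by the legacy quasi-likelihood fit, and between 2 and 4 with a sample left out, the highest without saline 1. Icosl was not under 0.05 in 8 of 14 alternatives (DESeq2, the exact test, the legacy fit, the block and each sample left out), and Cd86 was under it in 4. Members whose groups did not overlap were 4 under upper-quartile normalization, beside 56.9% of all genes, and 5 to 6 when a sample was left out, beside 74.7% to 81.7% of all genes, where a group of 1 overlaps less easily by construction.

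Signs changed for 4 members. With each sample left out, Cd274 was between -0.42 and 0.14, Pdcd1lg2 between -1.31 and 3.12, Cd80 between -0.12 and 1.63 and Vtcn1 between -0.79 and 1.34, and a group left with 1 sample was assumed to vary like the other. Over all tested genes, the log2 fold change and gene length had a Spearman correlation of -0.34. With that trend removed, Pdcd1lg2 was also below 0, at -0.16, and the cause was not tested. In the same fit Cd276 was at -0.66, Cd86 at 0.83, Icosl at 0.65 and Vsir at 0.60. Pdcd1lg2 was dropped when at least 10 counts were required in every sample. Depth limits Pdcd1lg2, Cd80 and Vtcn1 most, whose counts reached down to 5, 21 and 10.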
